A study of Mus musculus with 6 samples.

Results

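The integrated stress response genes of the ATF4 pathway were examined in naïve CD4 T cells with and without RNMT, the methyltransferase that completes the RNA cap by methylating its guanosine. The 10 genes were Atf4, Atf5, Ddit3, Ddit4, Asns, Chac1, Trib3, Psat1, Sesn2 and Ppp1r15a, chosen by symbol from the 46983 genes counted. Of these, 8 were among the 12336 genes with enough reads to be tested, and Asns and Chac1 were not. Cells were sorted from mouse lymph nodes by surface markers of naïve CD4 T cells, and rRNA-depleted total RNA was sequenced in 6 libraries. The 3 control libraries came from Rnmt fl/fl males that lacked Cre (CD4cre -), and the 3 Rnmt cKO libraries came from Rnmt fl/fl males that carried it (CD4cre +). All animals therefore had an Rnmt allele with loxP sites around an exon, on a C57B6/J background. The Cre was driven by Cd4 regulatory sequence, which is active from the double-positive thymocyte stage, so the deletion preceded the naïve stage, and the effects of the transgene and of Rnmt loss cannot be told apart. The labels do not say whether each library came from 1 animal, so the p-values measure the spread between these libraries.

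In the integrated stress response, a kinase that senses amino acid shortage, unfolded protein in the endoplasmic reticulum, double-stranded RNA or haem shortage phosphorylates the initiation factor eIF2α. Most protein synthesis then slows, while ATF4 mRNA, which carries short upstream reading frames, is translated more. ATF4 protein turns on genes for amino acid synthesis and uptake, tRNA charging and redox balance, together with genes that switch the response off or, if the stress lasts, favour cell death. In T cells the pathway is known for supporting amino acid supply after activation. Because ATF4 is controlled at translation, its mRNA level is not a measure of its protein, and the mRNAs of its targets are the usual readout in RNA data.

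ATF4 binds with C/EBP partners to composite elements with the letters TGATGNAA, which read TTNCATCA on the other strand. This motif was searched on both strands in RefSeq promoter windows of the GRCm38.p6 build, each running from 250 bases before to 50 bases after a transcript start. It was found in 3 of the 12 windows of the 10 genes, and in 3.97% of all 32851 windows. All 3 matches are shown, with the matched letters in capitals.
Chac1 (chr2:119351038-119351067, + strand, match on the other strand): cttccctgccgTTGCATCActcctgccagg
Trib3 (chr2:152344028-152344057, - strand, match on the other strand): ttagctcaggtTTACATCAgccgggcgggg
Asns (chr6:7693214-7693243, - strand, match on the same strand): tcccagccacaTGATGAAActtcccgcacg
Counted from the RefSeq start, the match began 193 bases before it in Chac1, 23 bases before it in Asns and 15 bases after it in Trib3. Against the GENCODE gene coordinates given below, the Chac1 match again lay before the gene, but the Asns match lay inside the gene and the Trib3 match before it. The windows of the other 7 genes did not hold these letters. A match describes the sequence only, and binding was not measured.

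Levels are given as CPM, read counts brought to the same library size. The libraries held between 8873413 and 11277764 counts in genes, and 31.8 to 47.9% of uniquely mapped reads fell in no gene. Rnmt itself (ENSMUSG00000009535) had 51.5 to 58.7 CPM in control and 26.6 to 42.0 CPM in Rnmt cKO, with no overlap (log2 fold change -0.67, edgeR exact test, adjusted p = 0.00035). Its count covers all exons, so reads from the deleted exon were not separated from the rest. The naïve CD4 T cell markers are given in part. Of these, Tcf7, Lef1 and Trbc2 did not pass the test (log2 fold changes of 0.19, 0.03 and 0.04), while Cd4 was higher (0.35) and Cd3g and Il7r were lower (-0.44 and -0.96). B cell markers summed to 39.0 to 46.3 CPM in control and 50.7 to 87.7 CPM in Rnmt cKO. Of these, 4 of 6 passed the test as higher. Over all tested genes 8.0% passed as higher and 6.84% as lower, which stands beside this and the next tallies. Myeloid markers summed to 6.39 to 8.06 and 15.9 to 38.3 CPM (3 of 5 tested higher), and plasma cell markers to 8.06 to 10.7 and 12.2 to 36.7 CPM. Of the 2 plasma cell markers tested, Jchain was higher (log2 fold change 3.40), while the other had a log2 fold change of -0.58 and did not pass. CD8 T cell markers fell from 21.7 to 23.3 CPM to 13.5 to 17.3 CPM (2 of 2 lower), and erythroid markers from 4.75 to 7.52 CPM to 1.06 to 1.35 CPM (2 of 2 tested lower). Of the activated and effector markers, 3 of 5 tested were lower, Cd44, Il2ra and Foxp3, with sums of 224 to 252 CPM in control and 191 to 237 CPM in Rnmt cKO. Proliferation markers summed to 170 to 193 CPM in control and 448 to 488 CPM in Rnmt cKO, and 12 of 13 were higher. The part of these cells in the values below was not tested, and in bulk RNA fewer cells of a type and less RNA per cell cannot be told apart. No listed marker was at 0 in all 6 libraries. The myeloid markers S100a8 and S100a9, the proliferation marker Aurkb and both tested erythroid markers exceeded 1 CPM in the libraries of 1 group only, so they entered the test through the group where they were high, and their calls are no support for a count.

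None of the 8 tested genes passed the test between Rnmt cKO and control. By the edgeR exact test 0 of 8 passed an adjusted p of 0.05, while 14.8% of all tested genes did, 6.84% as lower and 8.0% as higher. The quasi-likelihood test also called 0 of the 8, while over all tested genes it called 636 lower and 793 higher. DESeq2 called 0 of the 8 as well, with 638 lower and 702 higher over all tested genes. At an unadjusted p under 0.05, 1 gene passed in the exact test (Sesn2), against 25.0% of all tested genes. In the quasi-likelihood test 1 gene passed so and in DESeq2 0, and the share over all tested genes was not counted for these tools. The log2 fold change was above 0 for 6 genes and below 0 for 2, with a median of 0.09, beside 0.01 over all tested genes. A missed threshold does not show that the levels were equal, and the 95% interval of each difference is given below with its values.

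**Figure D1:**
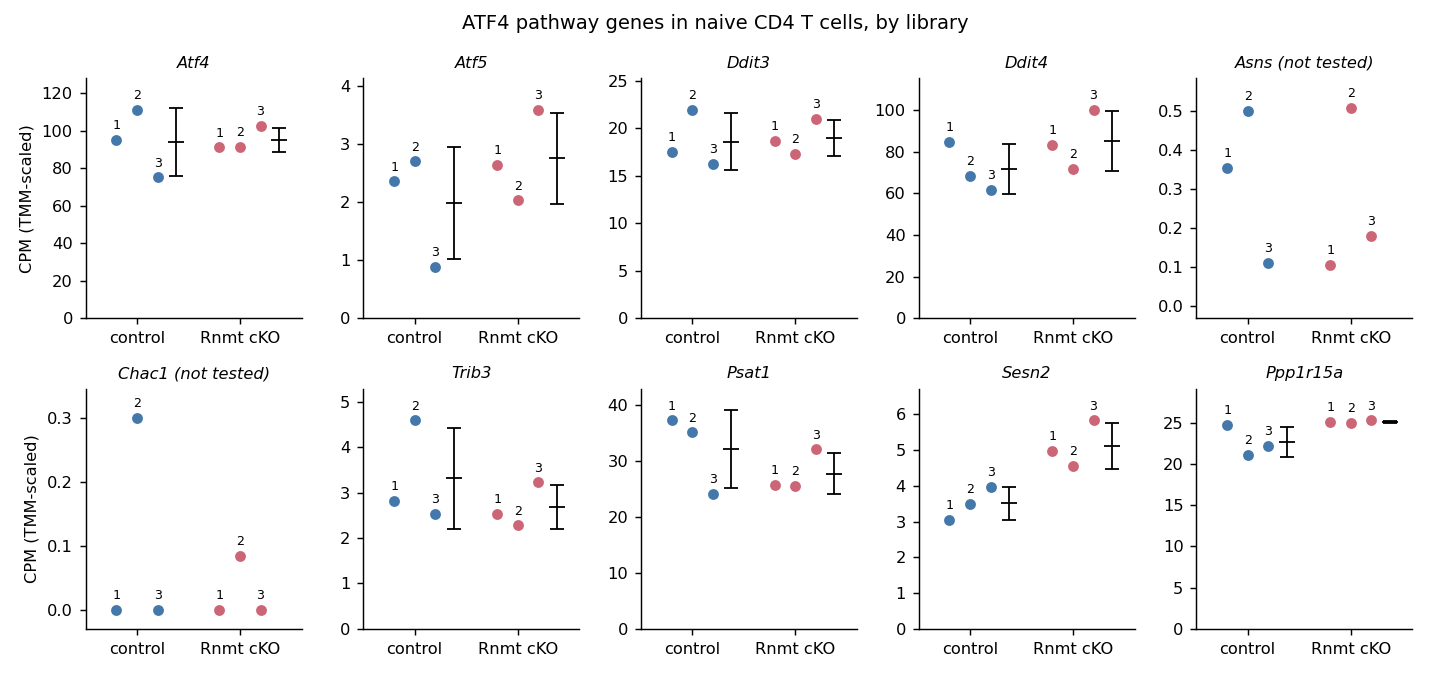
Levels of the 10 ATF4 pathway genes in CPM (TMM-scaled, linear axes) in each library, numbered by replicate, for control (blue) and Rnmt cKO (red), with the mean and SD of 3 libraries in black for the 8 tested genes. The groups overlap for every gene except Sesn2 and Ppp1r15a, and Asns and Chac1 stay at or below 0.51 CPM.

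Atf4, the central transcription factor of the response, was the most abundant of the 10 genes and had nearly the same mean in both groups. Atf4 (ENSMUSG00000042406, chromosome 15, 80255184 to 80257541, + strand, GRCm38) had 95.1, 111 and 75.1 CPM in control 1, 2 and 3, and 91.2, 91.4 and 103 CPM in Rnmt cKO 1, 2 and 3. The 3 Rnmt cKO values lay inside the control range. Means were 93.8 CPM ± 18.1 (SD, n = 3) in control and 95.1 CPM ± 6.60 (SD, n = 3) in Rnmt cKO. The log2 fold change was 0.02 (SE 0.17, edgeR exact test, adjusted p = 0.972), and its 95% interval in limma ran from -0.24 to 0.31, which is a fold of 0.845 to 1.24. The sign depended on single libraries. Without control 3 the estimate was -0.12, and without Rnmt cKO 3 it was -0.06.

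Ddit3, which encodes CHOP, the factor that favours cell death under prolonged stress, also differed by less than the spread between libraries. Ddit3 (ENSMUSG00000025408, chromosome 10, 127290774 to 127296288, + strand) had 17.5, 22.0 and 16.2 CPM in the controls and 18.7, 17.3 and 21.0 CPM in the Rnmt cKO libraries. All 3 Rnmt cKO values again lay within the control range. Ddit3 differed by 0.03 in log2 fold change (SE 0.15, edgeR exact test, adjusted p = 0.965), with a 95% interval of -0.28 to 0.35. It turned to -0.01 when control 1 was left out, to -0.06 for control 3 and to -0.07 for Rnmt cKO 3. Ddit3 lies across Mars, a tRNA synthetase gene on the opposite strand, and only sense reads were counted.

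Atf5, a relative of ATF4 that is under the same kind of translational control and is linked to mitochondrial stress, was detected at a few CPM. Atf5 (ENSMUSG00000038539, chromosome 7, 44812256 to 44816658, - strand) had 20, 27 and 8 counts across the controls, and 25, 24 and 40 across Rnmt cKO. These are 2.35, 2.69 and 0.884 CPM, and 2.64, 2.02 and 3.59 CPM. Control 3 was the lowest library and Rnmt cKO 3 the highest, and the remaining values of both groups lay between 2.02 and 2.69 CPM. Atf5 had a log2 fold change of 0.47 (SE 0.50, edgeR exact test, adjusted p = 0.536), with a wide 95% interval of -0.33 to 1.38. Without control 3 it was 0.12.

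The next 4 genes encode brakes, either on mTORC1, the kinase complex that drives growth, or on the response itself. Sesn2 showed the largest log2 fold change of the 8 tested genes in the edgeR exact test. In limma it had 0.520, slightly below Atf5 at 0.527. The product of Sesn2, Sestrin 2, senses leucine and holds mTORC1 back through GATOR2, and the gene is also a known p53 target. Sesn2 (ENSMUSG00000028893, chromosome 4, 132492032 to 132510501, - strand) had 3.06, 3.49 and 3.98 CPM in the controls and 4.97, 4.56 and 5.83 CPM in the Rnmt cKO libraries, from 26 to 36 and 47 to 65 counts. Every Rnmt cKO value lay above every control value, as did those of 16.6% of all tested genes. Means were 3.51 CPM ± 0.460 (SD, n = 3) and 5.12 CPM ± 0.648 (SD, n = 3), a 1.45-fold difference. In log2 fold change this was 0.54 (SE 0.14, edgeR exact test, unadjusted p = 0.029, adjusted p = 0.137), and its 95% interval ran from 0.05 to 0.99. A larger absolute log2 fold change was seen in 14.3% of all tested genes. The estimate stayed between 0.41 and 0.66 in all 15 alternative analyses, with adjusted p between 0.0517 and 0.405. Gm12981, an antisense-class gene annotated on the same strand within this locus, held 1 to 5 counts per library.

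Ppp1r15a encodes GADD34, the subunit that directs a phosphatase to eIF2α and so ends the response. Ppp1r15a (ENSMUSG00000040435, chromosome 7, 45522916 to 45526268, - strand) had 24.7, 21.1 and 22.2 CPM in the controls and 25.0, 25.0 and 25.3 CPM in the Rnmt cKO libraries. The groups did not overlap, but control 1 lay just under the Rnmt cKO values. The Rnmt cKO libraries were closer to each other than the controls were, with an SD of 0.158 CPM against 1.86 CPM. Ppp1r15a had a log2 fold change of 0.15 (SE 0.07, edgeR exact test, adjusted p = 0.516), with a 95% interval of -0.09 to 0.39. With Sesn2, it made 2 of 8 tested genes whose groups did not overlap, while 31.4% of all tested genes did not overlap in either direction.

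Ddit4 encodes REDD1, an mTORC1 inhibitor that ATF4, glucocorticoids and hypoxia are known to induce. Ddit4 (ENSMUSG00000020108, chromosome 10, 59949669 to 59951834, - strand) had 84.8, 68.4 and 61.6 CPM in the controls and 83.4, 71.5 and 100.1 CPM in the Rnmt cKO libraries. Rnmt cKO 3 was the highest library and control 3 the lowest, and control 1 lay above Rnmt cKO 1 and 2. The log2 fold change was 0.25 (SE 0.19, edgeR exact test, unadjusted p = 0.0954, adjusted p = 0.301), with a 95% interval of -0.06 to 0.55, which is a fold of 0.961 to 1.46. Ddit4 passed in 2 of 15 alternative analyses. With scaling by library size only it had a log2 fold change of 0.37 (adjusted p = 0.0286), where 15.7% of all tested genes passed as higher. With the share of reads in no gene as a covariate it had 0.28 (quasi-likelihood, adjusted p = 0.0175), where 13.7% passed as higher. Without Rnmt cKO 3 it was 0.10.

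Trib3 encodes a pseudokinase that is induced by ATF4 with CHOP and in turn restrains ATF4 activity. Trib3 (ENSMUSG00000032715, chromosome 2, 152337422 to 152344032, - strand), whose matched promoter element is printed above, had 2.82, 4.59 and 2.54 CPM in the controls and 2.54, 2.28 and 3.23 CPM in the Rnmt cKO libraries. Control 2 stood above the other 5 libraries, which lay between 2.28 and 3.23 CPM. Its log2 fold change was -0.32 (SE 0.28, edgeR exact test, adjusted p = 0.646), with a 95% interval of -0.88 to 0.36. Without control 2 it was -0.00014, so the estimate rested on that library.

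The remaining 3 genes encode enzymes. Psat1 catalyses a step of serine synthesis and was the only one of the 3 with enough reads to test. Psat1 (ENSMUSG00000024640, chromosome 19, 15904678 to 15947337, - strand) had 37.3, 35.1 and 24.2 CPM in the controls and 25.7, 25.6 and 32.1 CPM in the Rnmt cKO libraries. Control 1 and 2 were the highest libraries and control 3 the lowest, so the control range enclosed all the Rnmt cKO values. For Psat1 the log2 fold change was -0.21 (SE 0.22, edgeR exact test, adjusted p = 0.492), with a 95% interval of -0.55 to 0.16.

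Asns, which makes asparagine, and Chac1, which degrades glutathione, are strong ATF4 targets in many cells and were near the limit of detection in both groups. Asns (ENSMUSG00000029752, chromosome 6, 7675169 to 7693254, - strand) had 3, 5 and 1 counts across the controls, and 1, 6 and 2 across Rnmt cKO. Both groups summed to 9 counts, for which the exact Poisson interval is 4.12 to 17.1 counts. Chac1 (ENSMUSG00000027313, chromosome 2, 119351229 to 119354381, + strand) had 0, 3 and 0 counts across the controls, and 0, 1 and 0 across Rnmt cKO. The sums of 3 and 1 counts have Poisson intervals of 0.619 to 8.77 and 0.0253 to 5.57 counts, and a count of 0 in a library allows up to 0.266 to 0.338 CPM, unscaled. These intervals and limits cover counting error only. No difference in either gene was detectable at this depth.

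**Figure D2:**
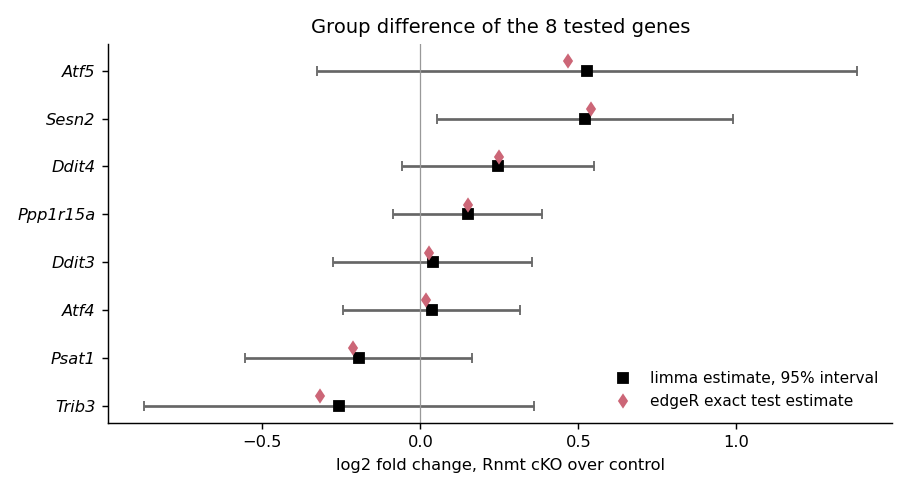
Log2 fold change of Rnmt cKO over control for the 8 tested genes, with the limma estimate and its 95% interval (black squares and bars) and the edgeR exact test estimate (red diamonds). The interval includes 0 for every gene except Sesn2, for which it runs from 0.05 to 0.99, and it is widest for Atf5.

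To compare levels between genes, CPM was divided by the summed exon length in kilobases (RPKM). In control cells Atf4 had 54.4 RPKM ± 10.5 (SD, n = 3) and Ddit4 had 40.8 RPKM ± 6.78 (SD, n = 3), with overlapping control values. Atf4 lay above 92.0% of the tested protein-coding genes and Ddit4 above 88.1%. Ddit3 followed at 20.9 RPKM ± 3.37 (SD, n = 3), clear of its neighbours in the order, and then Psat1 at 10.97 RPKM ± 2.39 (SD, n = 3) and Ppp1r15a at 7.71 RPKM ± 0.632 (SD, n = 3), which overlapped. Trib3 had 1.64 RPKM ± 0.549 (SD, n = 3), and all its control values lay above those of Sesn2. Sesn2 at 1.01 RPKM ± 0.132 (SD, n = 3) and Atf5 at 0.992 RPKM ± 0.483 (SD, n = 3) overlapped. Asns at 0.148 RPKM and Chac1 at 0.061 RPKM closed the order, overlapped, and lay above 0.626% and 0.106% of the tested protein-coding genes. The enzymes thus ranged from the middle of the expressed genes (Psat1, above 51.1%) to nearly undetected. The motif lay in the gene at place 6 of the order, Trib3, and in both of the last genes, places 9 and 10. A link between the motif and the level was not tested.

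**Figure D3:**
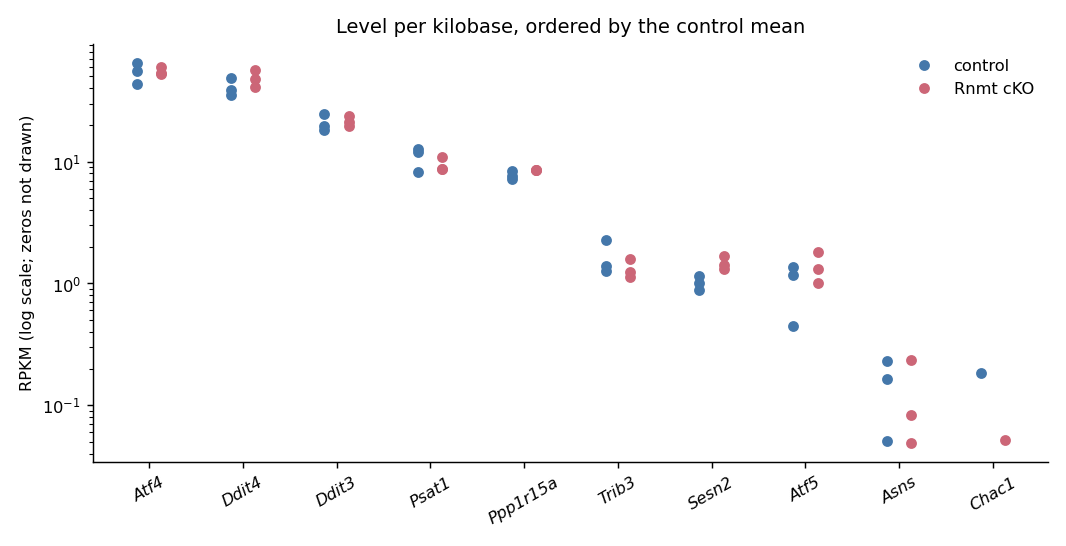
Level per kilobase (RPKM, log axis) of the 10 genes in the 3 control (blue) and 3 Rnmt cKO (red) libraries, ordered by the control mean, with libraries at 0 counts not drawn. Atf4 and Ddit4 lie highest, and Asns and Chac1 lie lowest, at or below 0.234 RPKM in every library.

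The genes varied between libraries of the same group, and often by more than between the groups. Across the 3 controls the log2 range was 0.57 for Atf4, 1.42 for Atf5, 0.43 for Ddit3, 0.46 for Ddit4, 0.81 for Trib3 and 0.62 for Psat1, against a median of 0.25 over all tested genes. For each of these genes the range across controls was larger than the difference between the groups. The same held for Ppp1r15a, with a control range of 0.23 and a difference of 0.15. Sesn2 was the exception, with a control range of 0.36 and a difference of 0.54. Control 3 was the lowest of all 6 libraries for 5 of the 8 genes (Atf4, Atf5, Ddit3, Ddit4 and Psat1), while it was the lowest for 20.5% of all tested genes. Control 2 was the highest for 3 (Atf4, Ddit3 and Trib3) and Rnmt cKO 3 for 4 (Atf5, Ddit4, Sesn2 and Ppp1r15a), while these libraries were the highest for 10.4% and 24.1% of all tested genes. The share of unique reads in no gene was 36.1, 39.7 and 46.1% in control 1, 2 and 3, and 47.9, 46.5 and 31.8% in Rnmt cKO 1, 2 and 3. This share was lowest in Rnmt cKO 3 and highest in Rnmt cKO 1, and Rnmt cKO 1 and 2 both lay above control 3, the highest control. Its part in the values of these genes was not tested.

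**Figure D4:**
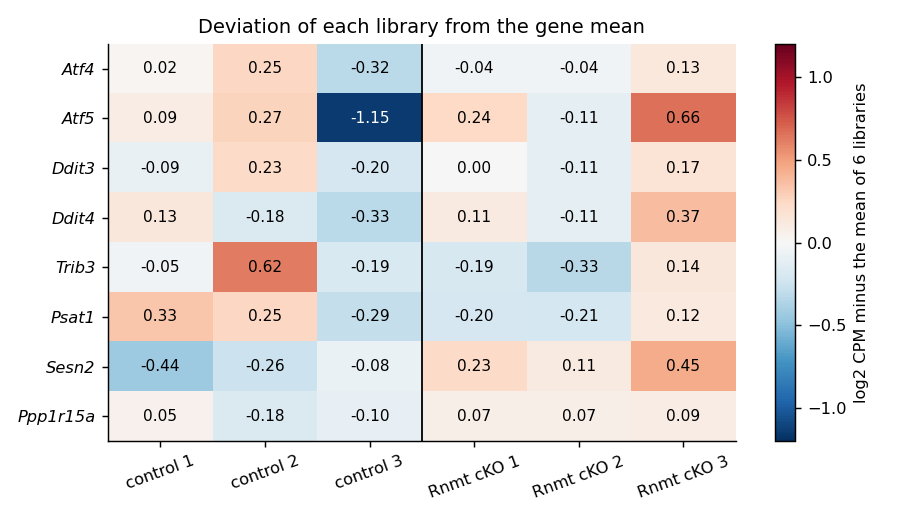
Deviation of each library's log2 CPM from the mean of the 6 libraries for the 8 tested genes (red above, blue below, scale in log2 units), with a line between control and Rnmt cKO. Control 3 is below the mean for all 8 genes, from -0.08 for Sesn2 to -1.15 for Atf5, and Rnmt cKO 3 is above it for all 8.

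Over the 6 libraries, the genes closest in pattern to Atf4 were sought among the 10389 tested protein-coding genes by the Pearson correlation of log2 CPM. The 5 highest values were for Fam173a (0.98), Slc7a5 (0.98), Acbd6 (0.98), Mars (0.98) and Rwdd2a (0.97), and 59 genes reached 0.9. Slc7a5, a subunit of the large neutral amino acid transporter, had 38.7, 46.0 and 26.3 CPM in control and 33.5, 35.2 and 44.4 CPM in Rnmt cKO. Mars, the methionyl-tRNA synthetase, had 54.3, 66.9 and 41.9 CPM and 49.7, 50.8 and 55.8 CPM. Slc7a5 and Mars were on the lists of ATF4 targets described next. All 5 genes, on those lists or not, were highest in control 2 and lowest in control 3, as Atf4 was. The choice by correlation favours such a pattern, so it is no sign of shared control. Among the 8 tested genes themselves, the correlation with Atf4 was 0.90 for Ddit3, 0.87 for Atf5, 0.76 for Trib3, 0.75 for Psat1, 0.46 for Ddit4, -0.00 for Sesn2 and -0.04 for Ppp1r15a. These values describe 6 points that share library preparation and depth, and no test was made on them.

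Among the kinases upstream of the pathway, Eif2ak2 passed the test and the others did not. Eif2ak2 (ENSMUSG00000024079) encodes PKR, the eIF2α kinase activated by double-stranded RNA and induced by interferon, and was 38.6, 32.7 and 32.3 CPM in the controls and 67.9, 55.4 and 53.2 CPM in the Rnmt cKO libraries. The groups did not overlap. Its log2 fold change was 0.77 (SE 0.14, edgeR exact test, adjusted p = 1.64e-07), and it passed in all 15 alternatives. It was the 1 gene of 9 on the list of eIF2α kinases and their regulators that passed, beside 14.8% of all tested genes in either direction. The log2 fold change was 0.03 for Eif2ak3 (PERK, the endoplasmic reticulum sensor), -0.14 for Eif2ak4 (GCN2, the amino acid sensor) and 0.13 for Eif2ak1 (HRI, the haem sensor), with adjusted p of 0.92, 0.629 and 0.514 in the edgeR exact test. Of 12 genes for eIF2, its exchange factor eIF2B and the eIF2α phosphatase, 0 passed in the exact test. An unadjusted p under 0.05 was seen for 1 of the 12, beside 25.0% of all tested genes. The list's median log2 fold change was 0.11. Among them Ppp1r15b, the constitutive partner of GADD34, had a log2 fold change of -0.03. Of 10 listed bZIP partners and relatives of ATF4, 7 were tested, with a median log2 fold change of 0.07. Of the 7, 0 passed in the exact test (14.8% of all tested genes) and 1 had an unadjusted p under 0.05 (25.0%). Atf3, a target and relative of ATF4 that rises early in the response, had 0, 1 and 1 counts in control and 1, 2 and 4 counts in Rnmt cKO, and was not tested.

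Beyond the 10 genes, 46 further known ATF4 targets were listed, and 33 of them could be tested. Of these 33, 2 were lower and 1 was higher in the exact test, with a median log2 fold change of 0.02, beside 6.84% lower and 8.0% higher over all tested genes. By list, the median was 0.02 for amino acid and one-carbon metabolism, -0.13 for amino acid transporters, 0.07 for aminoacyl-tRNA synthetases and 0.21 for the other targets. Their summed level was 2243, 2432 and 1954 CPM in the controls and 2121, 2131 and 2384 CPM in the Rnmt cKO libraries. The sum, which included Slc7a5 and Mars, was highest in control 2 and lowest in control 3. Control 3 was also lowest for sums outside the ATF4 targets, such as immediate early genes (607 CPM) and proliferation markers (170 CPM). The sums of p53 targets (937 CPM) and of the IRE1 and ATF6 arms (1551 CPM) were lowest in control 2.

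The lower genes were a transporter and an enzyme of one-carbon metabolism. Slc7a1 (ENSMUSG00000041313), which takes up arginine and lysine, had 89.3, 103 and 79.2 CPM in control and 60.5, 65.6 and 67.1 CPM in Rnmt cKO. Its groups did not overlap, and its log2 fold change was -0.49 (SE 0.12, edgeR exact test, adjusted p = 0.000387), which passed in all 15 alternatives. The other 5 tested transporters of 9 listed did not pass. Mthfd1l (ENSMUSG00000040675), a mitochondrial enzyme that yields formate, had 70.0, 75.8 and 73.1 CPM in control and 54.7, 52.9 and 60.9 CPM in Rnmt cKO. Its log2 fold change was -0.38 (SE 0.07, edgeR exact test, adjusted p = 0.00262), and it passed in 12 of 15 alternatives. Without control 2 its adjusted p was 0.0502. Of the 10 listed genes of amino acid and one-carbon metabolism, 6 were tested and the other 5 did not pass, among them Shmt2, the mitochondrial serine hydroxymethyltransferase (log2 fold change -0.01), and Mthfd2, its partner in the same pathway (0.17, adjusted p = 0.34). Phgdh, which catalyses the step before Psat1, had a log2 fold change of 0.05 (edgeR exact test, adjusted p = 0.919), and it too was lowest in control 3, at 30.2 CPM.

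The higher gene was Map1lc3b (ENSMUSG00000031812), which encodes an autophagosome protein. It had 71.2, 66.1 and 64.0 CPM in control and 79.1, 79.3 and 92.0 CPM in Rnmt cKO, with a log2 fold change of 0.32 (SE 0.09, edgeR exact test, adjusted p = 0.0203). It passed in 9 of 15 alternatives, and leaving out control 2 gave an adjusted p of 0.137, leaving out control 3 gave 0.133 and leaving out Rnmt cKO 3 gave 0.0634. The other 8 tested of the 15 genes on its list did not pass, and Gdf15, Fgf21 and Cdsn had 0 counts in all 6 libraries. Of 12 aminoacyl-tRNA synthetase genes, 0 passed in the exact test (14.8% of all tested genes) and 2 had an unadjusted p under 0.05 (25.0%). Their summed level was 1069, 1186 and 918 CPM in the controls and 1034, 1040 and 1166 CPM in the Rnmt cKO libraries, so the groups overlapped.

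**Figure D5:**
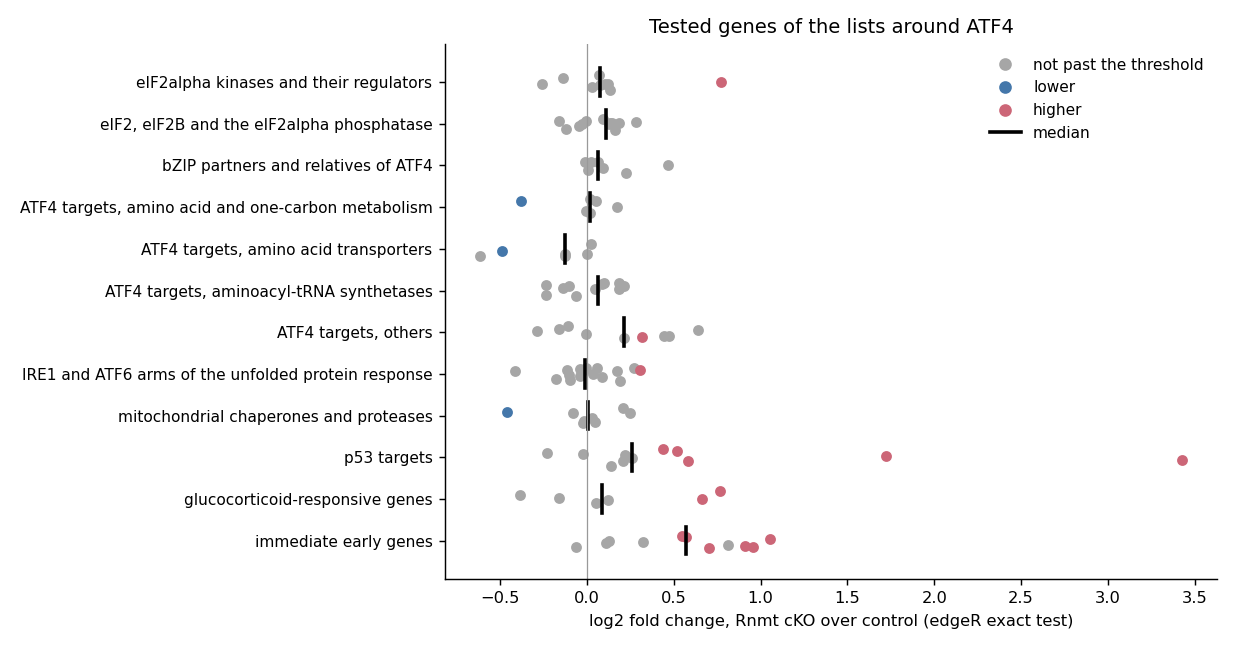
Log2 fold change (edgeR exact test, Rnmt cKO over control) of every tested gene on 12 lists around ATF4, with genes past the threshold as lower in blue and as higher in red, other genes in grey, and list medians as black bars. The ATF4 target lists hold 2 blue and 1 red point of 33, while 6 of 11 immediate early genes are red, as are 5 of 11 p53 targets, of which Phlda3 and Pmaip1 (the 2 points farthest right) were tested only through the Rnmt cKO libraries.

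The other arms of the unfolded protein response, which run beside ATF4, were read next. Of 16 genes of the IRE1 and ATF6 arms, 1 was higher in the exact test (8.0% of all tested genes), with a list median of -0.01. It was Xbp1, the factor spliced by IRE1, with 38.7, 47.3 and 45.5 CPM in control and 54.6, 51.5 and 56.6 CPM in Rnmt cKO (log2 fold change 0.31, SE 0.10, edgeR exact test, adjusted p = 0.046). It passed in 3 of 15 alternatives, and lost the call when any library was left out, with adjusted p from 0.0696 (control 2) to 0.295 (control 1). Hspa5, the chaperone BiP, had a log2 fold change of 0.09 (adjusted p = 0.726).

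Some of the 10 genes answer to other signals as well, so lists for those signals were read beside them. Sesn2 is among the genes that p53 can induce. Of 11 tested p53 targets 5 were higher in the exact test, beside 8.0% of all tested genes. Phlda3 (log2 fold change 3.43) and Pmaip1 (1.72) exceeded 1 CPM in Rnmt cKO only and so were tested because they were high there. Of the other 9, 3 were higher, with a median log2 fold change of 0.22. They were Trp53inp1 (0.44), Bax (0.58) and Aen (0.52), while Sesn1, the p53-responsive relative of Sesn2, had -0.02 (adjusted p = 0.94). Ddit4 is glucocorticoid-responsive. Of 6 tested glucocorticoid-responsive genes 2 were higher (8.0% of all tested genes), Tsc22d3 (0.66) and Sgk1 (0.77). Fkbp5 had 0.12 (edgeR exact test, adjusted p = 0.554). The median of the 6 was 0.09, with 4 above 0 and the lowest at -0.39. Tsc22d3 was also lowest in control 3, at 98.4 CPM against 136 CPM in control 1 and in control 2. Ppp1r15a can rise as an immediate early gene. Of 11 tested immediate early genes 6 were higher (8.0% of all tested genes), with a median of 0.57, among them Egr2 (0.96), Nr4a1 (0.91) and Junb (0.55). The part of these signals in the values of Sesn2, Ddit4 and Ppp1r15a was not tested.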

How the data were processed

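RNA sequencing libraries of 3 control and 3 Rnmt cKO samples were grouped by the genotype in the labels. The authors aligned 75-base paired-end reads to mm10 with STAR 2.5.2b (GENCODE vM12 basic annotation). They deposited raw counts per gene, of which those of the sense strand were used, without the lines for reads in no gene. The authors also deposited an edgeR table of 11221 genes, with fold changes, p-values and normalized signal for each library. Its fold changes and p-values were not used, and its signal, in which Atf5, Asns and Chac1 have no row, was used only to check the strand (a constant ratio to the sense counts, within 0.1%, for 100% of its genes). Coordinates and exon lengths came from GENCODE vM21 (46488 of 46983 genes matched), and promoters from RefSeq.

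Testing was limited to genes above 1 CPM in 3 or more libraries, with the edgeR 4.0.16 exact test (R 4.3.3) on tagwise dispersions with TMM scaling, and p-values were adjusted by Benjamini-Hochberg over all 12336 genes at a threshold of 0.05. CPM and RPKM values are TMM-scaled. SE come from log2 CPM with a prior count of 2, on which limma 3.58.1 gave the 95% intervals. The alternatives (15) included DESeq2 1.42.0 and leaving out each library. The code was tested on simulated data.

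The 10 genes and all lists were chosen with earlier results of these data known. Named besides them were list genes past the threshold, of the immediate early genes only some. In some lists up to 3 genes of the highest CPM were named as well, as were the 5 genes most like Atf4 and cell markers. Eif2ak3, Eif2ak4, Atf3, Phgdh, Gdf15, Fgf21 and Cdsn were named after their values were seen, for their roles or for being at 0. Of the marker genes, 1 is not reported here.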

Additional observations from a re-analysis of the deposited data

How the results depend on the processing

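In none of the 15 alternatives did a gene of the 10 pass as lower, and the median log2 fold change of those tested stayed above 0 when a library was left out (0.02 to 0.16). The number passing as higher was 1 (Ddit4) with library size only and 1 with the share of reads in no gene as a covariate, and 0 otherwise, also in each analysis that left out a library (0 to 0). Left-out libraries moved the log2 fold change of Atf4 from -0.12 (without control 3) and -0.06 (without Rnmt cKO 3) to 0.16, and that of Ddit3 from -0.069 (without Rnmt cKO replicate 3), -0.06 (without control 3) and -0.01 (without control 1) to 0.17. Atf5 was not tested where more than 1 CPM was asked of all 6 samples.

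Of the 33 tested ATF4 targets, the number lower was 1 and the number higher 6 with library size only, and 4 and 5 with the covariate. The number higher was 0 with DESeq2 and 0 with no filter on low counts. Without 1 library it ranged from 1 (without control 2) to 3 (without Rnmt cKO 3) for lower and from 0 (without control 2, control 3 or Rnmt cKO 3) to 1 for higher. Over all genes, 844 lower and 987 higher became 535 and 1938 with library size only, which shifted the median of all genes from 0.01 to 0.14 and the share of calls that were higher from 53.9% to 78.4%. They became 1466 and 1696 with the covariate, and ran from 547 (without Rnmt cKO 2) to 1285 (without Rnmt cKO 3) and from 643 (without Rnmt cKO 2) to 1221 (without Rnmt cKO 3). DESeq2 gave 638 and 702. The cause of these shifts was not tested.

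Deviations of same-numbered libraries from their group means correlated at -0.21, -0.02 and -0.35. They gave no sign of pairing by replicate number, but so few libraries cannot exclude it. With the replicate block 276 genes were lower and 431 higher, with 1 and 0 ATF4 targets, and 0 of the 10 genes passed. At these depths genes of a few counts, Asns and Chac1, could not be compared.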

Other observations

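The complexes through which DDIT4 and SESN2 act on mTORC1 were read as a further list of 18 genes, 17 of them tested. In the edgeR exact test 1 was lower and 2 were higher, beside 6.84% and 8.0% of all tested genes, with a median log2 fold change of 0.03. Wdr59 and Wdr24 encode subunits of GATOR2, the complex that Sestrin 2 binds, and went opposite ways. Wdr59 had 24.8, 24.4 and 31.9 CPM in control and 17.2, 19.6 and 16.6 CPM in Rnmt cKO (log2 fold change -0.60, SE 0.14, adjusted p = 0.00129), and Wdr24 had 30.3, 31.1 and 27.6 CPM and 39.2, 37.5 and 42.9 CPM (log2 fold change 0.43, SE 0.08, adjusted p = 0.00323). For both genes the groups did not overlap, and each passed in 14 of 15 alternatives. With the replicate block their adjusted p was 0.0656 and 0.0829. Gatsl3, also known as Castor1, the arginine sensor of the same pathway, was higher (0.47, adjusted p = 0.0488) but passed in 3 of 15 alternatives. Mtor itself had a log2 fold change of -0.00, and the other Sestrins, Sesn1 and Sesn3, had -0.02 and 0.06.

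Mitochondrial stress also acts through ATF4 and ATF5. Of 8 mitochondrial chaperone and protease genes, 1 was lower in the edgeR exact test, beside 6.84% of all tested genes. It was Hspe1, the co-chaperonin HSP10, with 95.3, 67.1 and 85.7 CPM in control and 55.1, 53.3 and 71.6 CPM in Rnmt cKO (log2 fold change -0.46, SE 0.20, adjusted p = 0.0207), where Rnmt cKO 3 lay above control 2. It passed in 8 of 15 alternatives, and leaving out control 1 gave an adjusted p of 0.178, control 3 gave 0.11, Rnmt cKO 1 gave 0.13 and Rnmt cKO 2 gave 0.145. Its partner Hspd1, HSP60, had 108, 113 and 114 CPM and 102, 107 and 122 CPM (log2 fold change -0.02, adjusted p = 0.953).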
